A study of Homo sapiens with 11 samples.

Results

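The genes described here are 10 regulators of the circadian clock: BHLHE40, BHLHE41, PER1, PER2, PER3, CRY1, CRY2, NR1D1, NR1D2 and RORA. They were taken by symbol, and each was found as 1 row among the 60676 genes of the count table. All 10 passed the filter on low counts, as did 19981 genes in total. RNA was measured by sequencing in RWPE1, a line of immortalized human prostate epithelium that does not form tumours, grown in serum-free keratinocyte medium. There were 3 libraries from untreated cells in normoxia (0 h) and 3, 3 and 2 libraries from cells kept in 1% oxygen for 6, 12 and 24 h, and a further 24 h library of the study was not analysed here. The labels give every hypoxic culture 10 mM HEPES buffer in its medium and name no buffer for the normoxic cultures. If the media differed, oxygen and buffer changed together and cannot be told apart. No normoxic library was collected at 6, 12 or 24 h among those used, and the clock time of harvest is not given in the sources used here, so hours in hypoxia and hour of the day cannot be told apart either. The labels do not say that replicates came from separate cultures, and p-values then measure only the spread between these libraries, which may be technical.

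The mammalian clock is a feedback loop of transcription. CLOCK and BMAL1 bind E-box sequences and switch on their own repressors: the period proteins PER1, PER2 and PER3 and the cryptochromes CRY1 and CRY2, which together inhibit CLOCK and BMAL1, and the bHLH repressors BHLHE40 (DEC1) and BHLHE41 (DEC2), which compete for E-boxes. A second loop joins the nuclear receptors NR1D1 and NR1D2 (REV-ERBα and REV-ERBβ), which repress BMAL1 through a response element called RORE, to RORA, which activates BMAL1 through that element. BHLHE40 and BHLHE41 are also known targets of the hypoxia-inducible factors, which bind a short core sequence in hypoxia response elements and whose partner protein is of the same structural family as BMAL1.

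The sequences upstream of 5 of these genes are printed because they show the letters that clock factors and hypoxia-inducible factors are known to read. They come from RefSeq on GRCh38.p14, run 5′ to 3′ on the strand of the gene, and end at the base before the annotated start, except that of PER1, which ends 101 bases before it. Capitals mark the E-box CACGTG, the hypoxia response cores ACGTG and GCGTG, the RORE core AGGTCA and the D-box forms TTATGTAA and TTACGTAA on either strand. An E-box always holds ACGTG on both strands, so those matches overlap. The stretches are chr3:4979187-4979436 (plus strand) for BHLHE40, chr12:26125038-26125287 (minus strand) for BHLHE41, chr17:8152505-8152654 (minus strand) for PER1, chr12:107093550-107093799 (minus strand) for CRY1 and chr1:7784041-7784290 (plus strand) for PER3.
BHLHE40: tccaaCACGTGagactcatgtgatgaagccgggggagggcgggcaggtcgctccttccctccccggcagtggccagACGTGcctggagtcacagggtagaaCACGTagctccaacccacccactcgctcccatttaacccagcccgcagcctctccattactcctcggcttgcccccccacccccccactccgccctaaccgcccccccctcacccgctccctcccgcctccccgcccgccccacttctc
BHLHE41: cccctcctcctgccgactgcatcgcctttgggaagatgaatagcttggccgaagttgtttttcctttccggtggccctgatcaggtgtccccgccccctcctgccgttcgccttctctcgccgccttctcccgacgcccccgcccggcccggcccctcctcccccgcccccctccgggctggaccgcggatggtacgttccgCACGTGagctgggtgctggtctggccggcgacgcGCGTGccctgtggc
PER1: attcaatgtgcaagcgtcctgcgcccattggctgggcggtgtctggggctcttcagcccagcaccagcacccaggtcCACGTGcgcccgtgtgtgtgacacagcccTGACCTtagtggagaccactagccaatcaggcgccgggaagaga
CRY1: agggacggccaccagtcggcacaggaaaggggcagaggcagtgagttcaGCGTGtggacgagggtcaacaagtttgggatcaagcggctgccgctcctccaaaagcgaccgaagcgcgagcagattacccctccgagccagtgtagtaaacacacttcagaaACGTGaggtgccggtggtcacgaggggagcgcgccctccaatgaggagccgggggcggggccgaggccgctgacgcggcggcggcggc
PER3: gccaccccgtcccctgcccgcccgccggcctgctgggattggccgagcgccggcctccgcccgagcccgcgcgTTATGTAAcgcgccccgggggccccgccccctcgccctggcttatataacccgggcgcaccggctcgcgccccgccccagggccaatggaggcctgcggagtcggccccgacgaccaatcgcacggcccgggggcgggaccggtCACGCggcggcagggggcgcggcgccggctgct

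Over the 250 bases upstream of the 13 RefSeq starts of the 10 genes, the E-box was present in 4 genes, BHLHE40, BHLHE41, PER1 and NR1D2, and in 6.34% of 35116 upstream stretches of the same length. A hypoxia response core lay upstream of 9 of the 10 genes, against 43.2% of all stretches. RORA had none in the 1 stretch searched, chr15:60627531-60627780 (minus strand). That stretch lies inside the annotated gene (60488284 to 61229302), so the sequence before its outermost start was not searched. The stretches of PER1 and PER2 also lie inside their annotated genes, as do the downstream stretches of CRY2 and NR1D2 and part of that of PER3. All matches of NR1D2 came from its downstream stretch. Genes with more than 1 start, PER3, CRY2 and NR1D2, had more chances of a match. The RORE core was found at PER1 and CRY2 (12.1% of all stretches), and the D-box form TTATGTAA at PER3 and NR1D2 (0.834%). These matches are letters in a window and not measured binding.

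Libraries held 27496009 to 49488345 counts. Expression is given as CPM, the counts per 1000000 counts of a library after TMM scaling, which compares each gene with the bulk of the genes in its library and does not measure RNA per cell. In bulk RNA, fewer cells of a type and less RNA per cell cannot be told apart. The basal markers KRT5, KRT14, KRT15, TP63, ITGA6 and CDH3 were present in all libraries (KRT5 at 6072 to 15870 CPM). Their summed level lay between 8280 and 11200 CPM in normoxia and was higher in every hypoxic library, with 11700 to 17700 CPM after 6 h, 18300 to 20900 CPM after 12 h and 16500 to 21100 CPM after 24 h. The sum of 5 general epithelial markers was 1070 to 1140 CPM in normoxia, and in hypoxia its lowest library held 1420 CPM (6 h) and its highest 3080 CPM (24 h). Of the luminal markers, KLK3 was at 0 throughout. The summed endothelial markers reached at most 0.47 CPM, and PTPRC, the common leukocyte marker, 13 counts, though CSF1R (4.52 to 24.0 CPM) and COL1A1 (27.7 to 60.5 CPM) were present in every library. EGLN3, a prolyl hydroxylase that is itself induced by low oxygen, was higher at all 3 times with log2 fold changes of 6.23, 6.45 and 6.77, as was CA9, a carbonic anhydrase, with 3.17, 4.40 and 5.68. The 24 h libraries stood apart: replicate 2 had the lowest TMM factor (0.539) and 0.369% of its counts in mitochondrially encoded genes, and replicate 1 had 1.74%, where normoxic libraries had 10.2% to 10.3%, 6 h libraries 4.3% to 5.26% and 12 h libraries 4.78% to 6.78%. The part of these differences in the results was not tested.

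Under hypoxia the period genes and the cryptochromes each held members called in opposite directions at all 3 times, while NR1D1 and NR1D2 were both lower at 12 and 24 h. In edgeR's quasi-likelihood test, adjusted for all tested genes by the Benjamini-Hochberg method (a gene is called at an adjusted p under 0.05), 4 of the 10 genes were above and 5 below normoxia at each of 6, 12 and 24 h. BHLHE40, PER1, CRY1 and RORA were higher at all 3 times, and PER2, PER3, CRY2 and NR1D1 were lower at all 3. NR1D2 was lower at 12 and 24 h, and BHLHE41 was lower at 6 h. The background was wide: 52.8% of all tested genes were called at 6 h, with 25.1% up and 27.7% down. The shares were 51.2% at 12 h, with 24.2% up and 27.1% down, and 61.2% at 24 h, with 29.9% up and 31.3% down. Calls upward at every time were made for 14.8% of tested genes and downward for 17.9%. The 10 genes had median absolute log2 fold changes of 1.24, 1.33 and 1.53, beside 0.67, 0.64 and 0.95 over all tested genes. Their signed medians were -0.41, -0.17 and -0.62, beside 0.00, -0.03 and -0.07 over all. Hypoxic and normoxic libraries did not overlap for 9 of the 10 genes at 6 h, for 9 at 12 h and for all 10 at 24 h, where 69.6%, 72.3% and 73% of all tested genes did not overlap. With scaling by library size alone, the split at 24 h was 2 higher and 6 lower in place of 4 and 5, with PER1 (-0.16) and CRY1 (0.57) no longer called.

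**Figure D1:**
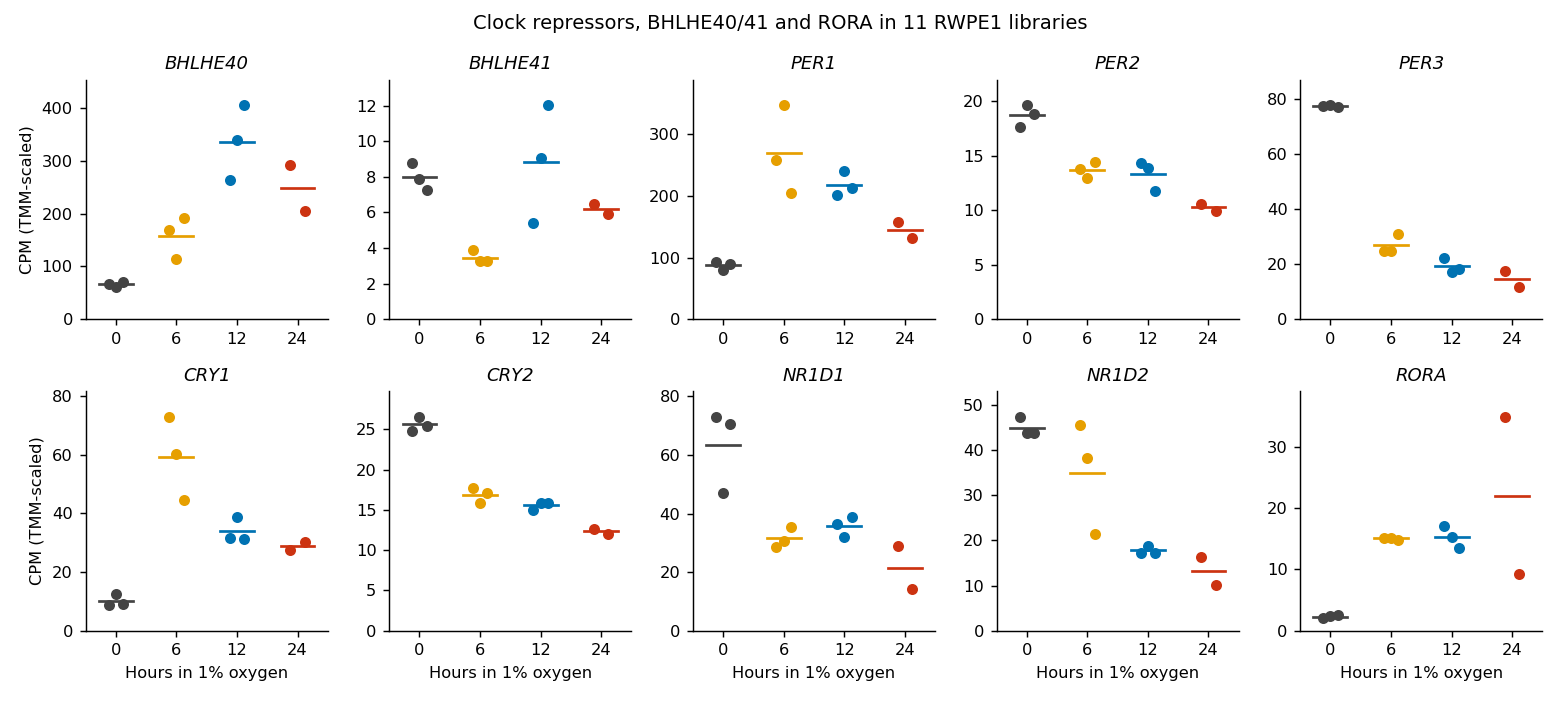
CPM after TMM scaling (linear axes from 0, 1 panel per gene) against hours in 1% oxygen, with 1 point per library and a bar at the mean of each time. BHLHE40, PER1, CRY1 and RORA lie above the normoxic points at every time, PER2, PER3, CRY2 and NR1D1 lie below them, and the pair of RORA points at 24 h is far apart, at 34.8 and 9.21 CPM.

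**Figure D2:**
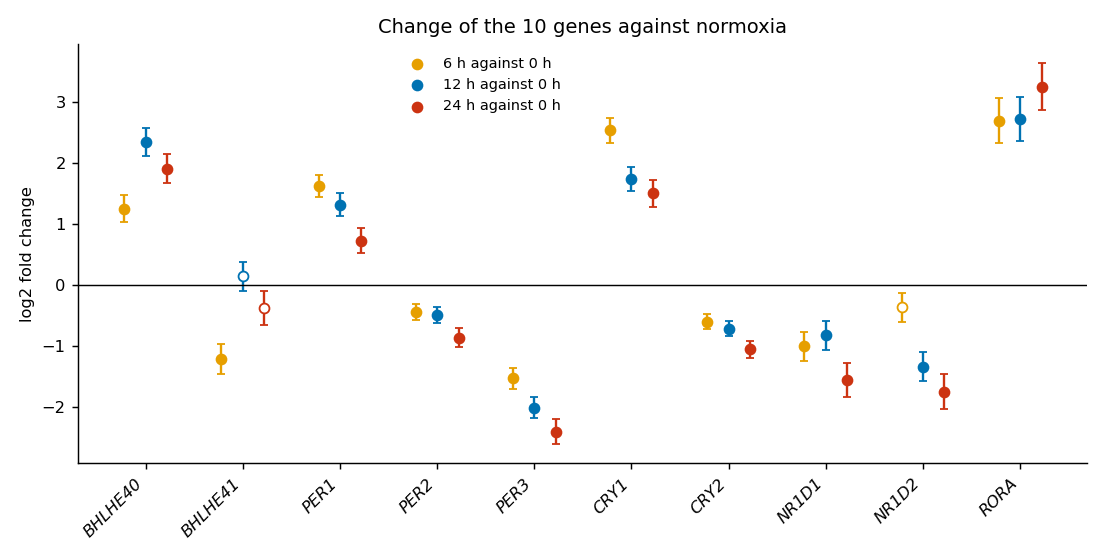
log2 fold change of each gene against 0 h at 6, 12 and 24 h, with bars of 1 standard error from edgeR. Filled points passed an adjusted p under 0.05 and open points, NR1D2 at 6 h and BHLHE41 at 12 and 24 h, did not.

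BHLHE40 (ENSG00000134107, GRCh38 chromosome 3, 4979437 to 4985323, plus strand) is the bHLH repressor DEC1. Its 3 normoxic libraries held 66.0, 61.5 and 70.7 CPM. At 6 h they held 168, 114 and 191 CPM, at 12 h 263, 339 and 405 CPM, and at 24 h 291 and 205 CPM. Every hypoxic library lay above the normoxic ones, and the 12 h libraries lay above those of 6 h. BHLHE40 rose 2.39-fold at 6 h (log2 fold change 1.25, standard error 0.22, edgeR adjusted p = 0.000439), 5.08-fold at 12 h (2.34, 0.23, adjusted p = 9.15e-06) and 3.75-fold at 24 h (1.91, 0.24, adjusted p = 2.8e-05). From 6 to 12 h it rose further, by 1.09 (standard error 0.22, adjusted p = 0.0192), in a comparison in which 4.95% of all tested genes were called (1.88% higher, 3.07% lower). From 12 to 24 h the difference was -0.44 (standard error 0.24, adjusted p = 0.194), and the libraries overlapped. Leaving out 6 h replicate 1 (adjusted p = 0.0616), 6 h replicate 2 (0.0831), 12 h replicate 2 (0.0745) or 12 h replicate 3 (0.104) ended the call at 12 h against 6 h.

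BHLHE41 (ENSG00000123095, chromosome 12, 26120030 to 26125037, minus strand), the paralog DEC2, did not follow BHLHE40. It stood at 8.80, 7.88 and 7.28 CPM in normoxia, 3.86, 3.24 and 3.24 CPM at 6 h, 5.41, 9.03 and 12.0 CPM at 12 h, and 6.46 and 5.88 CPM at 24 h. The 6 h libraries were all below normoxia, those of 12 h spread to both sides of it, and those of 24 h were just below it. BHLHE41 fell 2.32-fold at 6 h (log2 fold change -1.22, standard error 0.25, edgeR adjusted p = 0.00133). At 12 h its log2 fold change was 0.15 (standard error 0.24, adjusted p = 0.628), and at 24 h -0.37 (0.28, adjusted p = 0.259). Between 6 and 12 h BHLHE41 rose by 1.36 (standard error 0.25, adjusted p = 0.0129), a call lost without 6 h replicate 2 (0.0707), 12 h replicate 2 (0.0611) or 12 h replicate 3 (0.0749). At 24 h, scaling by library size alone called BHLHE41 lower (-1.28, adjusted p = 0.00491), and at 12 h limma-voom with sample quality weights called it higher (0.41, adjusted p = 0.017).

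Because both genes are counted in the same library, their ratio does not depend on scaling between libraries. Per kilobase of annotated exon, BHLHE40 exceeded BHLHE41 by 8.23, 8.56 and 10.6 times in the normoxic libraries. The ratio was 47.8, 38.5 and 64.7 at 6 h, 53.3, 41.2 and 37.0 at 12 h, and 49.4 and 38.2 at 24 h. All 8 hypoxic libraries lay above all 3 normoxic ones, and the 3 hypoxic times overlapped. At 6 h the ratio moved through both genes, since BHLHE40 rose and BHLHE41 fell, whereas at 12 and 24 h the change of BHLHE40 alone was called.

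Among the period genes, PER1 rose and PER2 and PER3 fell. PER1 (ENSG00000179094, chromosome 17, 8140472 to 8156506, minus strand) encodes a core repressor that also responds quickly to stress and hormone signals in many cells. It stood at 93.0, 80.1 and 89.2 CPM in normoxia, 258, 347 and 204 CPM at 6 h, 202, 241 and 213 CPM at 12 h, and 158 and 132 CPM at 24 h. The highest mean was at 6 h, and every hypoxic library was above normoxia. PER1 rose 3.09-fold at 6 h (log2 fold change 1.63, standard error 0.19, edgeR adjusted p = 2.14e-05), 2.5-fold at 12 h (1.32, 0.19, adjusted p = 0.00012) and 1.66-fold at 24 h (0.73, 0.20, adjusted p = 0.00733). Between 12 and 24 h PER1 fell by 0.59 on the log2 scale (standard error 0.21, adjusted p = 0.0487), where 28.4% of all tested genes were called (15.1% higher, 13.3% lower). This last call was lost in 8 of the 11 fits that left out 1 library, among them those without 12 h replicate 2 (adjusted p = 0.129) and 24 h replicate 2 (0.172). Scaled by library size alone, the 24 h value of PER1 against normoxia was -0.16 (adjusted p = 0.622), and sample quality weights in limma-voom gave 0.71 (0.0903).

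PER2 (ENSG00000132326, chromosome 2, 238244044 to 238290102, minus strand), the period protein whose loss shortens or abolishes rhythms in mice, changed least of the period genes at 6 and 12 h. Its levels were 17.7, 19.6 and 18.8 CPM in normoxia, 13.8, 13.0 and 14.4 CPM at 6 h, 14.3, 13.9 and 11.8 CPM at 12 h, and 10.6 and 9.97 CPM at 24 h. All hypoxic libraries were below normoxia, those of 24 h below all others. PER2 fell 1.36-fold at 6 h (log2 fold change -0.45, standard error 0.14, edgeR adjusted p = 0.0143), 1.41-fold at 12 h (-0.49, 0.14, adjusted p = 0.00911) and 1.82-fold at 24 h (-0.86, 0.16, adjusted p = 0.00047). The 6 h call ended when 0 h replicate 2 (0.0524) or 6 h replicate 2 (0.0517) was left out and with no filter on low counts (0.0564), the 12 h call when 12 h replicate 3 was left out (0.056), and the 24 h call with sample quality weights in limma-voom (0.0666).

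PER3 (ENSG00000049246, chromosome 1, 7784291 to 7845177, plus strand), a period gene not required for rhythm itself, fell furthest of the 10 genes at all 3 times. The normoxic libraries were within 1 CPM of each other at 77.6, 77.8 and 77.3 CPM. They were followed by 24.8, 24.9 and 30.9 CPM at 6 h, 22.2, 17.3 and 18.3 CPM at 12 h, and 17.7 and 11.6 CPM at 24 h. The highest hypoxic library, with 30.9 CPM, was far below them. PER3 fell 2.88-fold, 4.03-fold and 5.29-fold at 6, 12 and 24 h (log2 fold changes -1.53, -2.01 and -2.40, standard errors 0.17, 0.17 and 0.21, edgeR adjusted p = 1.74e-05, 4.73e-06 and 2.56e-06). Over leave-one-out fits the 24 h value ran from -2.80 to -2.15.

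The balance within the family changed accordingly. PER1 counts per kilobase were 4.13 to 5.32 times those of PER2 in normoxia and 13.4 to 27.1 times in hypoxia, and 1.2 to 1.39 times those of PER3 in normoxia and 7.67 to 16.2 times in hypoxia. PER2 stood at 0.261 to 0.289 of PER3 in normoxia and 0.536 to 0.985 of it in hypoxia. For each of these ratios the 8 hypoxic libraries lay apart from the 3 normoxic ones.

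The cryptochromes, which bind and inhibit CLOCK and BMAL1 directly, also went in opposite directions. CRY1 (ENSG00000008405, chromosome 12, 106991364 to 107093549, minus strand) held 8.73, 12.5 and 9.23 CPM in normoxia, 72.8, 60.0 and 44.4 CPM at 6 h, 31.6, 38.9 and 31.3 CPM at 12 h, and 27.4 and 30.1 CPM at 24 h. Its 6 h libraries were the highest, above all of those at 12 and 24 h. CRY1 rose 5.82-fold at 6 h (log2 fold change 2.54, standard error 0.20, edgeR adjusted p = 1.98e-06), 3.35-fold at 12 h (1.74, 0.20, adjusted p = 2.95e-05) and 2.83-fold at 24 h (1.5, 0.22, adjusted p = 8.19e-05). From 6 to 12 h CRY1 fell by 0.80 on the log2 scale (standard error 0.19, adjusted p = 0.0363), a call lost in 7 of the 11 leave-one-out fits, with adjusted p up to 0.16 without 12 h replicate 3. At 24 h, scaling by library size alone gave 0.57 (adjusted p = 0.0638).

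CRY2 (ENSG00000121671, chromosome 11, 45847118 to 45883248, plus strand) stood at 24.8, 26.5 and 25.4 CPM in normoxia, 17.8, 15.9 and 17.1 CPM at 6 h, 14.9, 15.9 and 15.9 CPM at 12 h, and 12.7 and 12.0 CPM at 24 h. Replicates of each time differed by less than 2 CPM, and each hypoxic library was below normoxia. CRY2 fell 1.51-fold, 1.64-fold and 2.08-fold at 6, 12 and 24 h (log2 fold changes -0.60, -0.72 and -1.05, standard errors 0.12, 0.12 and 0.14, edgeR adjusted p = 0.00131, 0.000451 and 4.95e-05). Per kilobase, CRY1 was at 0.455, 0.609 and 0.471 of CRY2 in the normoxic libraries. In hypoxia it was at 5.31, 4.90 and 3.37 times CRY2 at 6 h, 2.74, 3.18 and 2.56 times at 12 h, and 2.81 and 3.25 times at 24 h. Thus CRY2 was the more abundant cryptochrome transcript in each normoxic library and CRY1 in each hypoxic one.

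**Figure D3:**
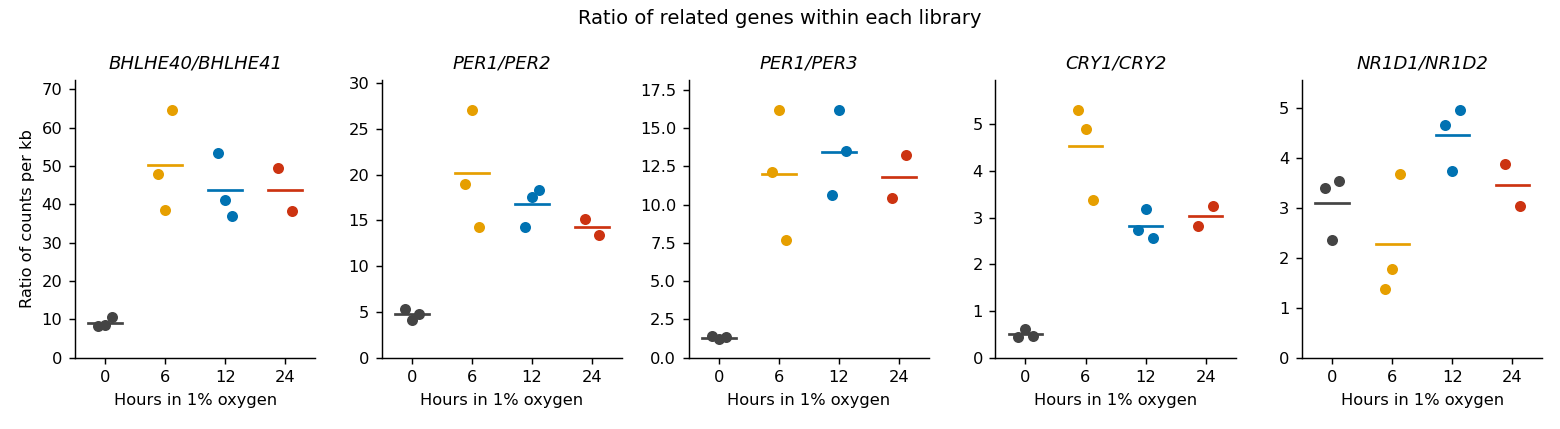
Ratio of counts per kilobase of annotated exon within each library (linear axes from 0), with 1 point per library and a bar at the mean of each time. For BHLHE40/BHLHE41, PER1/PER2, PER1/PER3 and CRY1/CRY2 the 8 hypoxic points lie above the 3 normoxic ones, and for NR1D1/NR1D2 they overlap (1.38 to 4.96 against 2.36 to 3.53).

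The nuclear receptors of the second loop also diverged: NR1D1 was lower at all 3 times, NR1D2 was lower at 12 and 24 h, and RORA was higher at all 3. NR1D1 (ENSG00000126368, chromosome 17, 40092793 to 40100589, minus strand) held 72.9, 46.9 and 70.4 CPM in normoxia, 28.5, 30.8 and 35.6 CPM at 6 h, 36.5, 31.9 and 38.8 CPM at 12 h, and 28.9 and 14.1 CPM at 24 h. It was lower in every hypoxic library. NR1D1 fell 2.0-fold at 6 h (log2 fold change -1.0, standard error 0.24, edgeR adjusted p = 0.00351), 1.77-fold at 12 h (-0.83, 0.24, adjusted p = 0.0113) and 2.94-fold at 24 h (-1.56, 0.28, adjusted p = 0.000428). Without 24 h replicate 1 the 24 h value was -2.22. NR1D1 shares 473 exonic bases, 18.0% of its exonic length, with THRA, the thyroid hormone receptor gene on the opposite strand, and the strand setting of the counting is not given in the sources used here. THRA was at 24.2 to 27.6 CPM in normoxia and 27.7 to 55.5 CPM at 6 h, where its log2 fold change was 0.65 (standard error 0.22, adjusted p = 0.0251). That call was lost in 5 of the 11 leave-one-out fits (0.39, adjusted p = 0.143, without 6 h replicate 2), with library size alone (0.362) and with at least 10 counts in every library (0.0517).

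NR1D2 (ENSG00000174738, chromosome 3, 23945286 to 23980617, plus strand) moved later. It was at 47.4, 43.7 and 43.9 CPM in normoxia and 45.5, 38.2 and 21.3 CPM at 6 h, with the first 6 h replicate inside the normoxic range and the last far below it. At 12 h the libraries held 17.3, 18.8 and 17.2 CPM and at 24 h 16.4 and 10.2 CPM, all below normoxia and below every 6 h library. NR1D2 had a log2 fold change of -0.36 at 6 h (standard error 0.24, edgeR adjusted p = 0.212), fell 2.53-fold at 12 h (-1.34, 0.24, adjusted p = 0.000695) and fell 3.37-fold at 24 h (-1.75, 0.29, adjusted p = 0.000216). From 6 to 12 h NR1D2 fell by 0.97 on the log2 scale (standard error 0.24, adjusted p = 0.0394). That call was lost in 8 of the 11 leave-one-out fits, with adjusted p up to 0.156 without 12 h replicate 3.

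RORA (ENSG00000069667, chromosome 15, 60488284 to 61229302, minus strand) encodes the receptor that activates BMAL1. It was drawn in the heatmap of hypoxia genes that the study selected on these samples, so its change is not independent evidence of its direction. RORA held 2.03, 2.37 and 2.55 CPM in normoxia, 15.2, 15.1 and 14.9 CPM at 6 h, 17.1, 15.3 and 13.5 CPM at 12 h, and 34.8 and 9.21 CPM at 24 h. The normoxic level rested on 88 to 106 counts per library, and all hypoxic libraries were above it. RORA rose 6.49-fold at 6 h (log2 fold change 2.70, standard error 0.36, edgeR adjusted p = 6.77e-05), 6.60-fold at 12 h (2.72, 0.36, adjusted p = 8.46e-05) and 9.54-fold at 24 h (3.25, 0.39, adjusted p = 2.04e-05). At 24 h a single library decided the size: the value was 1.93 without replicate 1 and 3.89 without replicate 2. Against 12 h, RORA at 24 h had a value of 0.53 (adjusted p = 0.293), which was -0.76 (0.00614) without 24 h replicate 1 and 1.17 (0.00166) without 24 h replicate 2. RORB, another receptor of the family, was not tested, with means of at most 0.214 CPM at any time.

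The genes on which the repressors act moved unequally. BMAL1 (ARNTL), the target of both RORA and the NR1D receptors, was at 11.8, 12.7 and 13.4 CPM in normoxia, 46.6, 41.4 and 40.0 CPM at 6 h, 46.2, 38.9 and 35.6 CPM at 12 h, and 64.5 and 26.6 CPM at 24 h. All hypoxic libraries were higher, and 24 h replicate 1 was the highest, as for RORA. BMAL1 rose 3.38-fold, 3.18-fold and 3.61-fold at 6, 12 and 24 h (log2 fold changes 1.75, 1.67 and 1.85, standard errors 0.25, 0.25 and 0.27, edgeR adjusted p = 0.000107, 0.000197 and 9.38e-05), and the 24 h value was 1.02 without 24 h replicate 1. Over the 11 libraries BMAL1 was, of 11911 protein-coding genes with a mean of at least 1 CPM, the gene whose log2 CPM was most like that of RORA (Pearson r = 0.994, Spearman rho = 0.927, r = 0.991 to 0.997 with 1 library left out). SUPV3L1 came next, with r = 0.991. Scaled by library size alone, r for RORA and BMAL1 was 0.963. The libraries share their time points, and this likeness is a description. Whether RORA, NR1D1 or NR1D2 changed the level of BMAL1 was not tested.

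**Figure D4:**
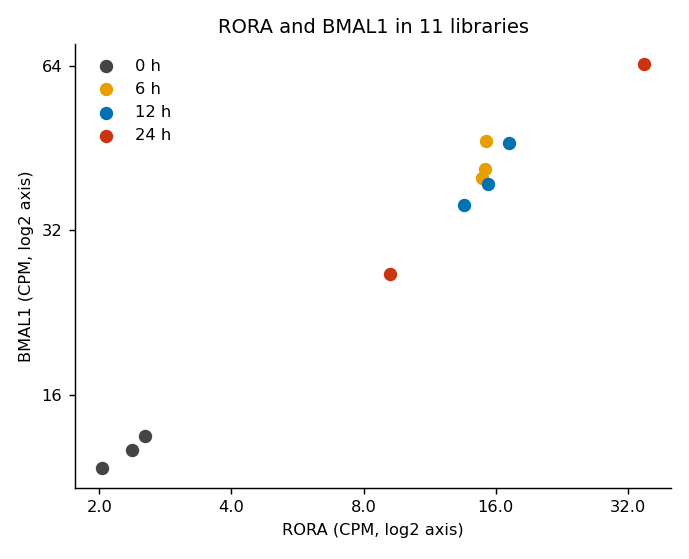
BMAL1 against RORA in CPM, both on log2 axes, with 1 point for each of the 11 libraries, coloured by hours in hypoxia. Normoxic points lie at the lower left, the 6 and 12 h points lie together, and the pair at 24 h lies on both sides of them along the same line.

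CLOCK, the partner of BMAL1, was not called at the first 2 times: its log2 fold changes were -0.12 (standard error 0.15, edgeR adjusted p = 0.503) at 6 h and -0.02 (0.15, adjusted p = 0.912) at 12 h, and it was lower at 24 h (-0.61, 0.17, adjusted p = 0.00802). The 24 h call of CLOCK ended with sample quality weights (0.0699) and with only the 2 groups compared (0.0508). BMAL2 was lower at 6 h (-0.34, standard error 0.12, adjusted p = 0.0319), a call lost in 6 of the 11 leave-one-out fits (up to 0.113, without 0 h replicate 1) and with no filter on low counts (0.126). NPAS2, a relative of CLOCK, was called at no time. Of the 4 activators tested, 1 was higher and 1 lower at 6 h, 1 and 0 at 12 h, and 1 and 1 at 24 h, where 52.8%, 51.2% and 61.2% of all tested genes were called.

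Of 5 output factors, 3 fell at all 3 times, as did 17.9% of all tested genes. These were DBP, TEF and HLF, the PAR bZIP activators that bind D-boxes, such as the one printed upstream of PER3, and whose own genes are classical clock outputs. HLF was at 8.74 to 11.2 CPM in normoxia, 0.875 to 1.71 CPM at 6 h, 1.36 to 1.89 CPM at 12 h, and 0.812 and 0.654 CPM at 24 h. Each hypoxic library was thus far below each normoxic one. HLF fell 7.70-fold, 6.16-fold and 13.7-fold (log2 fold changes -2.94, -2.62 and -3.77, standard errors 0.25, 0.25 and 0.33, edgeR adjusted p = 2.72e-06, 7.55e-06 and 2.8e-06). DBP had log2 fold changes of -1.42, -1.11 and -0.92 and TEF of -0.73, -1.06 and -1.29, all called. NFIL3 (E4BP4), the repressor that competes with these factors for D-boxes, went the other way. It was called higher at 12 h (1.07, standard error 0.20, adjusted p = 0.000717) and 24 h (1.49, 0.21, adjusted p = 7.59e-05), but not at 6 h (0.19, 0.19, adjusted p = 0.417). CIART, a further repressor of CLOCK and BMAL1, was called higher at 6 h (0.61, adjusted p = 0.0103) and 24 h (0.57, adjusted p = 0.0212). Without 0 h replicate 2 the adjusted p values of CIART were 0.0569 and 0.086, and without 24 h replicate 1 that of 24 h was 0.383.

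A further list of 7 genes held kinases and turnover factors of clock proteins, and TIMELESS, which is neither. Of these 7 genes, 4 were higher and 1 lower at 6 h, 3 and 1 at 12 h, and 1 and 3 at 24 h. These counts of 5, 4 and 4 called genes lie near the shares of all tested genes called, 52.8%, 51.2% and 61.2%. CSNK1E, which encodes casein kinase 1 epsilon, a kinase that marks period proteins for destruction, was higher at all 3 times (log2 fold changes 1.31, 0.98 and 0.73, standard errors 0.15, 0.15 and 0.17, edgeR adjusted p = 2.26e-05, 0.000225 and 0.00228). Its relative CSNK1D was higher at 6 h (0.80, adjusted p = 0.000381) and 12 h (0.42, adjusted p = 0.0213) and had a value of -0.11 (adjusted p = 0.535) at 24 h. The 12 h call of CSNK1D was lost in 4 of the 11 leave-one-out fits (up to 0.0963, without 12 h replicate 2), with no filter (0.0908) and with at least 10 counts in every library (0.0608). BTRC, a subunit of the ligase for period proteins, was higher at 6 h (0.78, adjusted p = 0.00068) and 12 h (0.71, adjusted p = 0.00156). FBXW11, its relative, was higher at 6 h (0.64, adjusted p = 0.00298). GSK3B, a kinase, and USP2, a deubiquitinase, were lower at 24 h (-0.39, adjusted p = 0.0499, and -0.96, adjusted p = 0.00884). The call of GSK3B was lost in 8 of the 11 leave-one-out fits (-0.23, adjusted p = 0.2, without 24 h replicate 2) and in 4 other alternatives, and that of USP2 with sample quality weights (0.354). TIMELESS, which also acts at replication forks, was the gene of this list that fell at all 3 times (-0.88, -1.17 and -1.72, adjusted p = 0.000121, 2.19e-05 and 3.06e-06). Scaled by library size alone, CSNK1D at 12 h and CIART and CSNK1E at 24 h turned below 0, and the 6 h calls of CSNK1D (adjusted p = 0.0633), BTRC (0.119) and FBXW11 (0.295) and the 12 h call of BTRC (0.412) were lost. Exons of other genes covered 18.54% of the exonic length of CSNK1E on the same strand. On the opposite strand they covered 16.88% of CSNK1D and 25.25% of USP2. The part of these overlaps in the values was not tested.

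**Figure D5:**
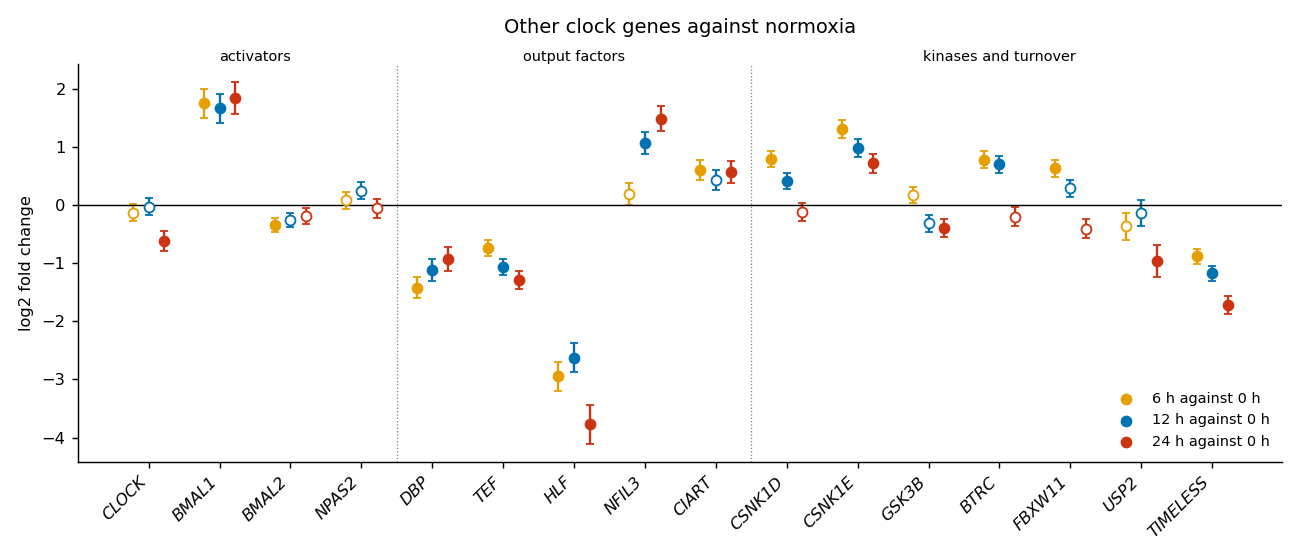
log2 fold change against 0 h at 6, 12 and 24 h of the tested clock activators, output factors and genes for kinases and turnover (with TIMELESS), with bars of 1 standard error from edgeR. Filled points passed an adjusted p under 0.05. BMAL1 stands at 1.75, 1.67 and 1.85 while CLOCK stands at -0.12 and -0.02 at 6 and 12 h, and HLF is the lowest, from -2.62 to -3.77.

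The order of the 10 transcripts by level changed between the conditions. In CPM per kilobase of annotated exon, NR1D1 was highest in normoxia (24.1 ± 5.46, SD, n = 3), overlapping BHLHE40 (18.8 ± 1.3), followed by PER1 (12.5 ± 0.946), PER3 (9.54 ± 0.0342), NR1D2 (7.77 ± 0.352) and CRY2 (4.13 ± 0.138). PER2 (2.64 ± 0.138), CRY1 (2.12 ± 0.424) and BHLHE41 (2.07 ± 0.198) came next, each overlapping its neighbour, and RORA was lowest (0.136 ± 0.0153). At 12 h BHLHE40 led with 95.5 ± 20.2 CPM per kilobase, above PER1 (31.2 ± 2.83), NR1D1 (13.6 ± 1.35) and CRY1 (7.10 ± 0.898), and none of these overlapped its neighbour. CRY2 (2.51 ± 0.0863), PER3 (2.37 ± 0.321), BHLHE41 (2.29 ± 0.858) and PER2 (1.88 ± 0.191) overlapped in turn, with RORA still lowest (0.900 ± 0.106). At 6 h BHLHE40 (44.9 ± 11.3) and PER1 (38.6 ± 10.3) overlapped at the top, and BHLHE40 led at 24 h as well (70.6 ± 17.3, n = 2). These levels use the total annotated exonic length, which overstates the length of a transcript where few isoforms are used, as may hold for RORA with 17023 exonic bases.

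Between hypoxic times, 4 of the 10 genes were called at 12 h against 6 h, BHLHE40 and BHLHE41 higher and CRY1 and NR1D2 lower, and 1, PER1, at 24 h against 12 h. Of all tested genes 4.95% and 28.4% were called, so the second count lies below the background. Non-overlapping libraries were seen for 6 genes in each of these comparisons, where 31.6% and 49.1% of all tested genes did not overlap. CRY1 was thus past its highest mean at 12 h, and BHLHE40 reached its highest mean there. Single libraries decided the first count, which was 0 when 6 h replicate 2, 12 h replicate 2 or 12 h replicate 3 was left out, 1 when 6 h replicate 1 was, and 2 when 0 h replicate 1, 0 h replicate 3 or 12 h replicate 1 was. Where it was 0 in edgeR, 4 or 5 members had an unadjusted p under 0.05. At 24 h against 12 h, 6 members were called without 24 h replicate 1.

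Some members ran alongside each other over the 11 libraries. PER3 and CRY2 had r = 0.966 of log2 CPM, PER2 and CRY2 0.955, PER2 and PER3 0.935, and CRY1 and PER1 0.928, while BHLHE40 and BHLHE41 had 0.087. Most like BHLHE40 among all protein-coding genes was TNFSF14 (r = 0.968) and most like BHLHE41 was MAF (0.962). For PER1, PER2 and PER3 these were ARID3A (0.988), ABO (0.970) and SLC7A11 (0.995). For CRY1 and CRY2 they were FKBP14 (0.992) and UNC119B (0.993), and for NR1D1 and NR1D2 SEPTIN8 (0.979) and GLB1L (0.981). All points share the 4 time points, and with few times many genes take like courses, so these values are descriptions over 11 libraries.

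Exons of other genes overlap some members on the opposite strand. UTS2 covers 868 bases (10.7%) of PER3 and had at most 1 count in any library, and BHLHE40-AS1 covers 451 bases (12.8%) of BHLHE40 and had at most 20 counts. A noncoding gene, ENSG00000236266, covers a further 482 bases (5.93%) of PER3 and had at most 33 counts. Like PER3 it was called lower at 6, 12 and 24 h (log2 fold changes -1.263, -1.557 and -3.595). SSPN covers 4.20% of BHLHE41 with at most 16 counts, and RORA-AS1 covers 3.31% of RORA. Next to the 2311 to 17736 counts of BHLHE40 and the 213 to 3361 of PER3, the counts assigned to their named partners were few. The strand setting of the counting is not given in the sources used here, and it decides how reads in shared exons are assigned. Few assigned counts therefore do not measure the transcription of a partner in shared exons, and the part of the overlaps in the results was not tested.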

How the data were processed

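DNase-treated RNA was sequenced from 11 RWPE1 libraries (75-cycle single ends, stranded kit, 1 batch of library construction). The authors trimmed reads with Trimmomatic, aligned them to GRCh38 with STAR and obtained counts for each Ensembl gene from featureCounts. The deposited values are whole-number counts, neither filtered nor normalized, and the submitters' processing notes also name FastQC, DESeq2 and hg38. Symbols and positions were taken from GENCODE 44 (60357 of 60676 identifiers matched), and upstream sequences from RefSeq on GRCh38.p14 (all 10 genes matched). filterByExpr (minimum count 10, total 15, by time point) kept 19981 genes, and TMM factors scaled library sizes. edgeR's glmQLFit and glmQLFTest were fitted to all 11 libraries with 1 mean per time point, and all tested genes entered the Benjamini-Hochberg adjustment. A standard error is the absolute log2 fold change over the square root of F. log2 CPM used a prior count of 2, and the biological coefficient of variation was 19.6%. Depth was 27496009 to 49488345 counts per library, and SDs cover the spread between libraries.

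The members and gene lists (activators, output factors, kinases and turnover with TIMELESS) were chosen with earlier results of these data known, and the genes of a list were named whatever their values. A few list and marker genes are not reported here. The genes most like a member are those with the highest Pearson correlation of log2 CPM among protein-coding genes with a mean of at least 1 CPM. Alternatives exchanged the test (limma-voom with and without sample quality weights, DESeq2), the scaling, the filter, the libraries fitted, a replicate block, and each library in turn. Scripts were tested on simulated counts. An exact permutation test of 3 libraries against 3 cannot go below p = 0.1 and was not used. The comparisons with 0 h share the normoxic libraries. The software was edgeR 4.0.16, DESeq2 1.42.0 and limma 3.58.1 in R 4.3.3, and Python 3.11.15.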

Additional observations from a re-analysis of the deposited data

Results flagged for a closer look

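The genes below had effects of hypoxia that differed between 2 durations, by edgeR's quasi-likelihood test of one hypoxic time against the other, so that the normoxic libraries are not shared. From 6 to 12 h the log2 differences were 1.09 for BHLHE40, 1.36 for BHLHE41, -0.80 for CRY1, -0.97 for NR1D2 and 0.88 for NFIL3, with 3 libraries each and no overlap between the times. From 12 to 24 h they were -0.59 for PER1, -0.59 for CLOCK, -1.15 for HLF, -0.53 for CSNK1D, -0.90 for BTRC, -0.70 for FBXW11, -0.82 for USP2 and -0.54 for TIMELESS, with 2 libraries at 24 h and no overlap. Leaving out 1 library in turn ended the call in 3 to 8 of 11 fits for each gene named from 6 to 12 h (5 for NFIL3), and from 12 to 24 h in 8 for PER1, 6 for USP2, 4 for CLOCK, 3 for CSNK1D, 2 for HLF and TIMELESS each and 0 for BTRC and FBXW11. All 8 calls from 12 to 24 h were lost with only the 2 groups compared and with sample quality weights in limma-voom. In the first of these comparisons 4.95% of all tested genes were called and in the second 28.4%. The mitochondrially encoded share was 4.78% to 6.78% at 12 h and 1.74% and 0.369% in the 24 h libraries, and its part in these differences was not tested.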

How the results depend on the processing

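Against 0 h, the number of members called was within 1.5 times its value of 9 under every alternative, from 8 to 10 at 6 and 12 h and 7 to 9 at 24 h. At 12 h against 6 h (4 members) it was 2 with library size alone, and 0 to 5 with 1 library left out. At 24 h against 12 h (1 member) it was 0 with sample quality weights, with median-of-ratios factors and with only the 2 groups compared, 2 with DESeq2, with no filter on low counts and with at least 10 counts in every library, 4 with library size alone, and 0 to 6 with 1 library left out. Where these counts were 0, the members at an unadjusted p under 0.05 numbered 4 or 5 (12 h against 6 h, edgeR) and, at 24 h against 12 h, 0 with sample quality weights (limma), 4 with median-of-ratios factors, 1 with only the 2 groups and 2 to 4 with 1 library left out (edgeR). The causes were not tested. DESeq2 gave no adjusted p for SSPN at 12 h against 6 h.

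A sign turned, where either value was called, for PER1 (-0.16), CIART (-0.28) and CSNK1E (-0.25) at 24 h and CSNK1D (-0.049) at 12 h against 0 h with library size alone, and for RORA (-0.76) and BMAL1 (-0.62) at 24 h against 12 h without 24 h replicate 1, the lower ends of leave-one-out ranges that reached 1.17 and 0.67 without 24 h replicate 2. Library size alone put the median log2 fold change of all genes at -0.32 at 6 h, -0.50 at 12 h and -0.97 at 24 h (0.00, -0.03 and -0.07 with TMM), and the 24 h value of PER1 lay above that median.

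Counts over all genes moved by over 1.5 times in places. At 24 h against 0 h they fell from 12235 to 6169 with sample quality weights. At 12 h against 6 h (989) they were 4489 with sample quality weights, 1922 with DESeq2, 1876 with only the 2 groups, 1674 with no filter, 510 with the replicate block and 61 to 3649 with 1 library left out. At 24 h against 12 h (5668) they were 1093 with sample quality weights, 0 with only the 2 groups in edgeR (5671 at an unadjusted p under 0.05) and 3068 to 9491 with 1 library left out.

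Between times, deviations from the group mean correlated from -0.156 to 0.207 for same-numbered replicates and from -0.271 to 0.283 for differently numbered ones. With 3 or 2 libraries per time, this check cannot exclude pairing. The numbers were not taken as pairs in the main fit. With the replicate block, 9, 9 and 9 members were called against 0 h, 3 at 12 h against 6 h (NR1D2 lost, adjusted p = 0.0568) and 1 at 24 h against 12 h, where PER1 was lost (0.0592) and NR1D1 gained (0.0487).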
